A study of Mus musculus with 3 samples.

Results

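Med13 encodes a subunit of the kinase module of Mediator, and its RNA was followed here along the gene in mouse 2-cell embryos. The gene was chosen by coverage: on mm9, chromosome 11 from 86.08 to 86.17 Mb holds a run of 9 windows of 10 kb that each reached 1 or more alignments per kb per 1000000 nuclear alignments (RPKM) in every litter. The stretch analysed runs 1.5 kb further at its upstream end and spans 91501 bases. These are 9 of 272592 nuclear windows. All 9 reached that level by the rule, against 3.16% of all windows, and nothing is read from that count. Because the coverage chose the gene, and because there is 1 group of 3 litters, levels are described without a test, as means with SD over litters.

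Embryos at embryonic day 1.5 were collected and lysed litter by litter, so each library pools the embryos of 1 litter, and the number and sex of the embryos are not given. All mothers were LSD1 FL/FL, homozygous for a floxed allele of a histone demethylase gene, and ZP3::Cre negative, so they lacked the Cre recombinase driven by the oocyte promoter of Zp3. They were of mixed strain background. The fathers are called wild type CB6 in the description of the crosses and C57/Bl6J in the growth protocol, and which holds is not resolved by the labels. RNA was copied into cDNA by SPIA, an isothermal amplification. The libraries held 34014013, 32431630 and 40474940 nuclear alignments of 72 bases in litters 1 to 3. In pooled embryos, fewer embryos with an RNA and less of it per embryo cannot be told apart.

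Mediator passes signals from transcription factors bound to DNA to RNA polymerase II. Its kinase module, made of MED12, MED13, cyclin C and the kinase CDK8 or CDK19, docks on and off the core complex, and MED13 or its paralog MED13L is the subunit that holds the module to the core. Mouse 2-cell embryos carry RNA stored by the oocyte and begin major transcription of their own genome, so spliced RNA in them can be of either origin. Med13 lies on the minus strand, so its 5′ end is at the high coordinate.

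Exon numbers below follow the transcript Med13-201 of GENCODE M21, which has 30 exons and 10546 bases, of which 6513 are coding without the stop codon. That annotation was made for GRCm38. Only exon lengths and the distances between exons were taken from it, and they were laid on the mm9 coverage with a single shift. The best shift scored 1.44 (mean log2 of alignment starts plus 1, summed over litters, inside exons less that just outside), against 0.907 for the best shift more than 100 bases away. Shifts up to 6 bases from the best scored within 2 percent of it, which describes the shift as a whole. The edges of single exons were not fitted, and the distances between exons were taken to hold on mm9.

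The sequences that frame the results are the promoter, where coverage was thin, and 4 exons picked by their level or their spread between litters. The promoter is the 250 bases before the gene's start from RefSeq (GRCm38.p6, chr11:86357597-86357846, minus strand). The exon sequences are those of Med13-201 in GENCODE M21 (GRCm38). Exon 3 had the highest level, the coding part of exon 1 and exon 29 belong to the exons with the lowest, and exon 24 differed most between litters. All are written 5′ to 3′ in lower case, with every CG in capitals.
promoter: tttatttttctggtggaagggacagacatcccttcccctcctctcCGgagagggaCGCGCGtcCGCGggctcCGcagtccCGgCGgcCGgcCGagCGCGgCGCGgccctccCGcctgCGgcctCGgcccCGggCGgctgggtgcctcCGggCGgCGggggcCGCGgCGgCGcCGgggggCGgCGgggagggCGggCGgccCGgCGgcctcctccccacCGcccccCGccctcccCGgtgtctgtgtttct
exon 1, coding part: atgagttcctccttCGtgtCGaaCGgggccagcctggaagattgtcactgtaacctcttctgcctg
exon 3: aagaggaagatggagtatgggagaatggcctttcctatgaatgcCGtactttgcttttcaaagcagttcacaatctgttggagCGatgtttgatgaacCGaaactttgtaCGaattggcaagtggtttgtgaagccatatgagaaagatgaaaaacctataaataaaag
exon 24: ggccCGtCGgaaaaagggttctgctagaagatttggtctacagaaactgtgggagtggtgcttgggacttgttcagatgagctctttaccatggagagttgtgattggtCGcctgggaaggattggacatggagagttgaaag
exon 29: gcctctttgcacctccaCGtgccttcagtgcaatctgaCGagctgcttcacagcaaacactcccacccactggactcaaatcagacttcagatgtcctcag
The promoter sequence held 37 CG, against a median of 6. Of 32851 promoter entries of the same length, 92.1% held at least 1 CG and 2.20% held as many. CG reads the same on both strands. This is a description of the sequence, and no methylation or factor binding was measured.

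The Med13 region stood well above the sequence around it in every litter. Counts of alignments in it were 15422, 12666 and 17119 for litters 1 to 3. The level was 4.96, 4.27 and 4.62 RPKM, with a mean of 4.62 ± 0.344 (SD, n = 3). The coefficient of variation between litters was 7.44%. It was 12.6% with libraries scaled by the median of ratios over windows, 12.3% with the total taken without the 100 windows of most alignments and 13.2% with distinct start positions. Upstream of the gene, the 50 kb at high coordinates held 24, 59 and 18 alignments, or 0.0198 ± 0.0146 RPKM. A flank of that length with a count of 0 could still hold up to 3 alignments, or 0.00176, 0.00185 and 0.00148 RPKM, so the upstream flank was thinly covered and not empty. Downstream, the 50 kb at low coordinates held 2085, 1365 and 1681 alignments, or 0.966 ± 0.225 RPKM. The gene was 4.89 ± 0.777 fold above the downstream flank and 117 to 520 fold above the upstream flank. Against both flanks together it was 9.57 ± 1.52 fold higher, and with distinct start positions 5.69 fold.

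**Figure D1:**
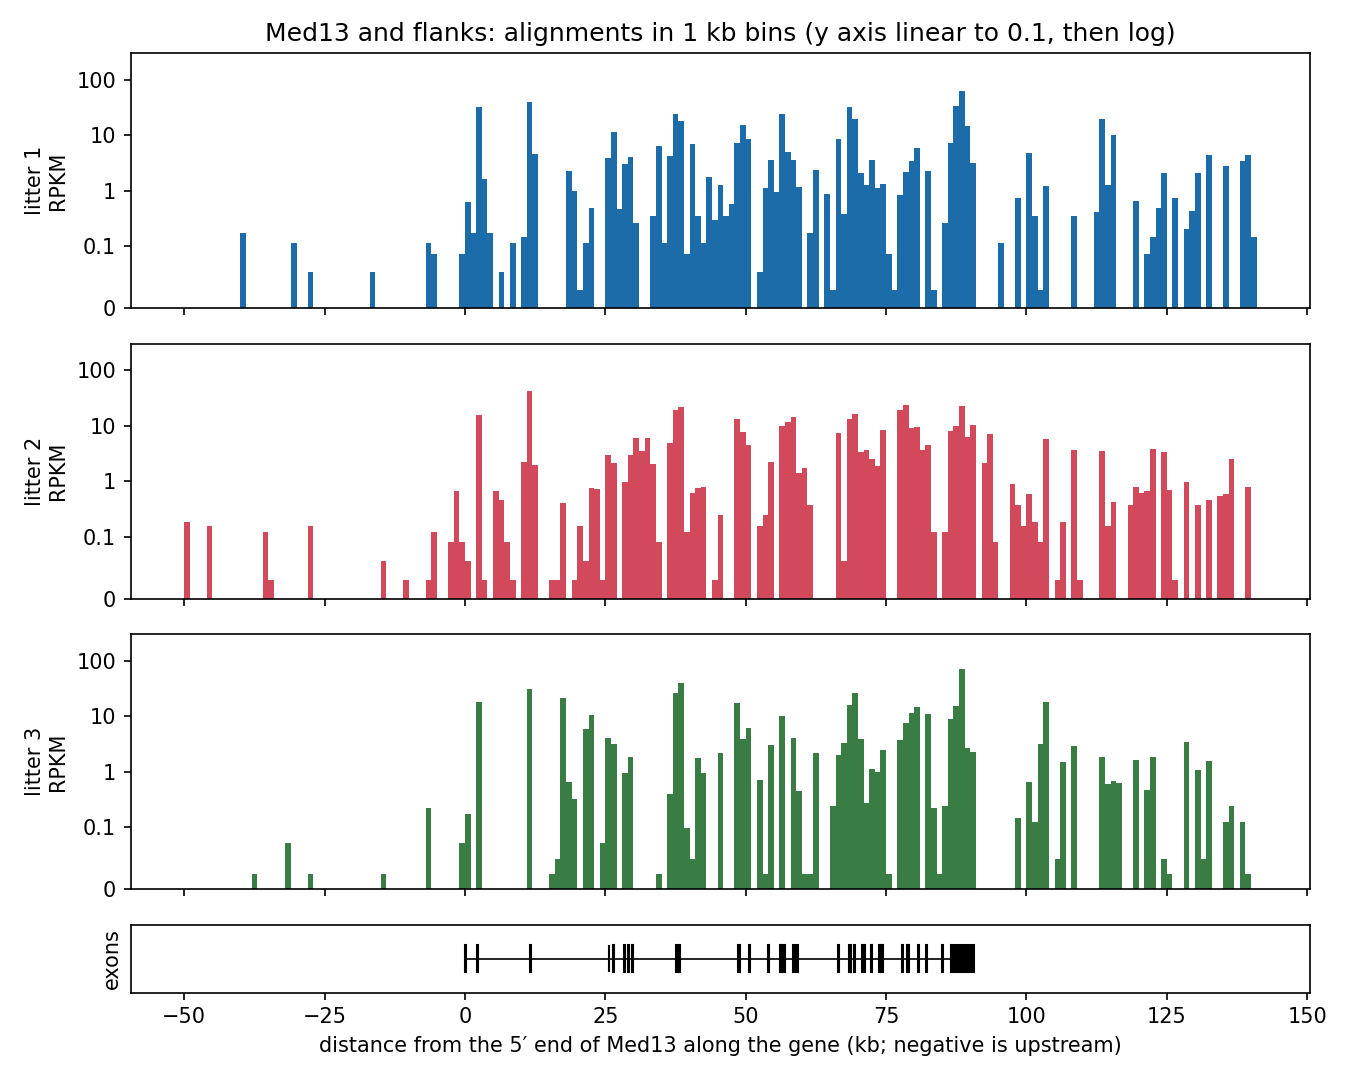
Alignments in 1 kb bins (RPKM) against distance from the 5′ end of Med13 in kb, 1 panel a litter, with the 30 exons drawn below. The y axis is linear up to 0.1 and logarithmic above. Bins upstream of the gene (negative distances) are nearly all at 0 in the 3 litters, the gene is covered in peaks at its exons, and sequence past its 3′ end is covered in part.

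In the mean of litters, the window from 86.08 to 86.09 Mb, which contains the last exon, was the highest of the 9, at 12.5, 6.52 and 11.1 RPKM in litters 1 to 3. In litter 2 the next window, from 86.09 to 86.10 Mb, was higher, at 7.56 RPKM. The window of lowest mean, from 86.14 to 86.15 Mb, had 2.35, 1.84 and 2.64 RPKM, and other windows were lower in litters 1 and 3. Just inside the threshold of the rule, the window from 86.16 to 86.17 Mb had 3.45, 1.91 and 1.80 RPKM. Just outside it, the upstream window from 86.17 to 86.18 Mb had 0.0911, 0.108 and 0.0469 RPKM, and the downstream window from 86.07 to 86.08 Mb had 0.594, 1.14 and 0.0815. The highest litter exceeded the lowest by over 2 fold in 2 of the 9 windows, against 38.3% of the 8626 windows at 1 RPKM or more in all litters. These 2 windows, from 86.09 to 86.10 Mb and from 86.11 to 86.12 Mb, differed by 4.03 and 2.25 fold.

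The genome had 7 runs of 9 or more windows at this level, and their windows made up 0.0275% of all windows. By the rule Med13 is a run of 9, the shortest length counted. Among these 7 its level was lowest, at 4.69 RPKM over the 9 windows against a median of 28.3. Its coefficient of variation over the 9 windows was 7.38% against a median of 18.9%, with 0 runs lower. That place depended on the scaling. With the median of ratios it was 12.6% and 1 run was lower, and with distinct start positions it was 13.02% and 4 runs were lower, against a median of 11.7%. Tiles of 90 kb laid along each chromosome give a wider comparison. Of 1835 tiles at 1 RPKM or more in all litters, 13.2% had a level as high as that of Med13 and 11.1% a coefficient of variation as low, with a median of 18.2%. Among the 713 tiles within 2 fold of the level of Med13, 11.2% varied as little. With the median of ratios 26.0% of the 1835 tiles varied as little as Med13, with the total without the 100 windows 26.6% and with distinct start positions 48.9%. The low spread of Med13 between litters was therefore not stable to the scaling.

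Coverage was concentrated in short blocks that matched the exons. Blocks were read from coverage alone, as stretches at 2 or more times the mean of the region in every litter. There were 19 blocks of 88 to 658 bases. They spanned 4.64% of the region and held 68.4%, 57.5% and 75.1% of its aligned bases in litters 1 to 3, with an SD of 8.86 percentage points (n = 3). Coverage in blocks exceeded that between them by 44.4, 27.8 and 61.9 fold. When blocks were read from 2 litters only and measured in the litter left out, the excess was 39.2, 26.3 and 46.8 fold. With distinct start positions the mean excess fell from 44.7 to 19.9 fold. With the exons laid on the region, 18 of 19 blocks lay on exons and 1 lay in intron 10. The single shift was fitted to the coverage of the same litters, so this match is in part set by the fit. Of 4250 bases in blocks, 3957 were exonic. The 18 blocks fell on 16 exons, since exon 30 held 3 of them, and 14 exons had no block.

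All 30 exons were covered above the upstream flank in every litter, including those without a block. Levels of exons are given as alignments per kb of start positions at which a 72-base alignment lies wholly inside the exon, so that short exons can be compared with long ones. Over all exons the level was 42.6, 35.3 and 40.7 RPKM in litters 1 to 3, or 39.5 ± 3.78 (SD, n = 3). Every litter covered nearly the whole transcript, at 99.8%, 98.1% and 96.2% of exon bases, and 94.7% of exon bases were covered in all 3. Single exons ranged from 3.29 to 335 RPKM in the mean of litters, with a median of 40.0, and 29 of 30 were at 1 RPKM or more in every litter. The exception was exon 1, at 0.857 RPKM in litter 2.

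Exon 3, a coding exon of 169 bases, was the highest of the 30 in each litter. It had 354, 368 and 284 RPKM in litters 1 to 3, and every one of its possible start positions was used in every litter. Its block ran over chr11:86159360-86159534, and its mean of 335 ± 45.4 RPKM was 8.39 times that of the median exon. The exon was thus high in all litters with little spread between them.

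Exon 19, of 190 bases, followed at 141, 106 and 197 RPKM, with its block at chr11:86101599-86101787. Exon 18, of 224 bases, had 204, 82.4 and 104 RPKM, at chr11:86102438-86102641. Exon 2, of 235 bases, had 184, 86.7 and 105 RPKM, at chr11:86168776-86169001. In exons 18 and 2 litter 1 was highest and litters 2 and 3 lay close to each other. Exon 9, of 684 bases, held the longest block, at chr11:86132860-86133517, with 64.0, 63.7 and 106 RPKM.

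In the mean of litters exons 1, 29 and 16 were lowest, followed closely by exons 22, 20 and 6 at 10.1, 10.9 and 12.4 RPKM. In litter 2 exon 16 ranked 21 of the 30. Exon 1, of 143 bases of which 66 are coding, had 17, 2 and 6 alignments inside it, or 6.94, 0.857 and 2.06 RPKM. Exon 29, of 101 bases, had 6, 2 and 7 alignments, or 5.88, 2.06 and 5.76 RPKM. With so few alignments the order of exons 1 and 29 cannot be told from counting error. Exon 16, which at 917 bases is the longest exon that is wholly coding, had 5.59, 18.2 and 4.99 RPKM, and alignments started at only 14.5%, 28.3% and 13.1% of its possible positions. Exon 9, also long, stood at 78.1 ± 24.6 RPKM, and every litter of exon 9 lay above every litter of exon 16.

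**Figure D2:**
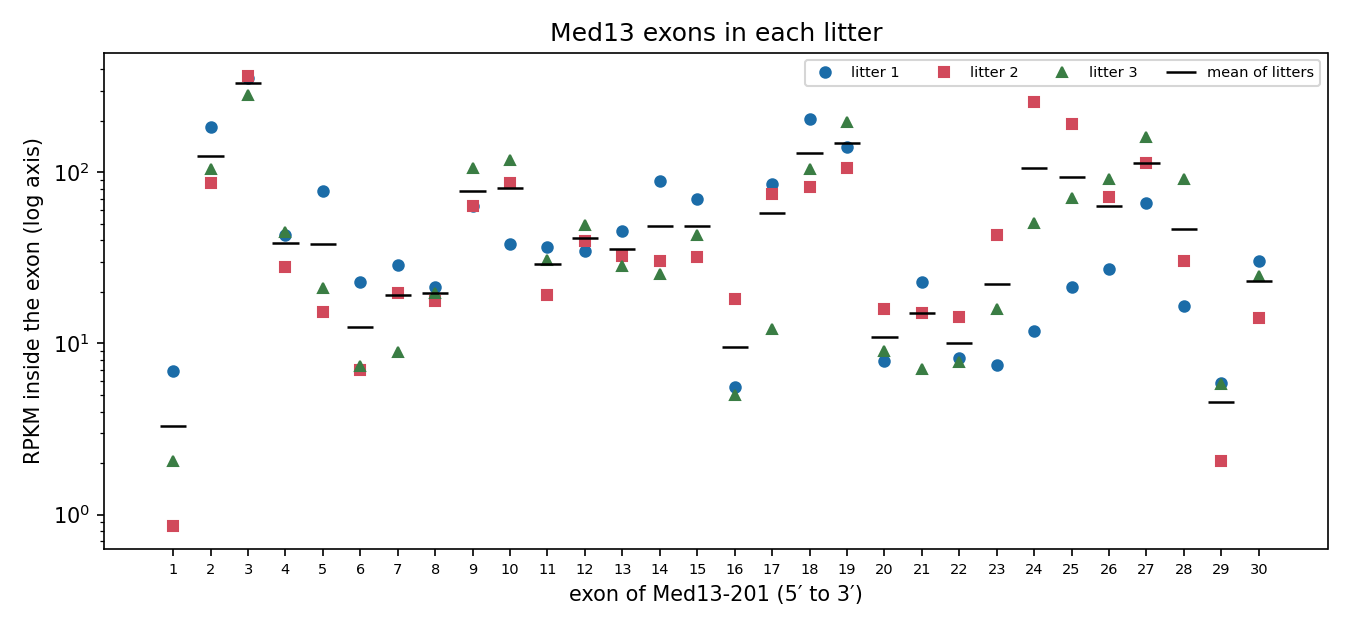
RPKM inside each of the 30 exons of Med13-201, in order from 5′ to 3′, on a log axis, with a symbol for each litter and a line at the mean. Exon 3 is highest in all litters, exons 1 and 29 are low in all, and exons 23 to 28 are lowest in litter 1.

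The litters differed more in single exons than in the sum of the exons. Over exons 1 to 29, without the last exon, the level was 53.7, 54.6 and 55.4 RPKM in litters 1 to 3, a narrower range than the 42.6, 35.3 and 40.7 of all 30 exons. For single exons, the highest litter exceeded the lowest by over 2 fold in 20 of 30 and by over 5 fold in 7 of 30, and the median coefficient of variation was 48.6%. Exon 24, of 143 bases, differed most, at 11.8, 257 and 50.8 RPKM, a range of 21.7 fold. Its mean of 106 RPKM therefore rests on litter 2. Exon 25 had 21.4, 191 and 70.5 RPKM, and exon 23 had 7.49, 42.9 and 15.99. Litter 1 was lowest in each of these exons and litter 2 highest.

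Litter 1 was lowest in the 6 exons from 23 to 28, with litter 2 highest in exons 23 to 25 and litter 3 highest in exons 26 to 28. Exon 28 had 16.6, 30.5 and 92.1 RPKM. As groups, exons 1 to 10 had 83.6, 70.6 and 87.8 RPKM and exons 11 to 20 had 45.4, 33.3 and 31.2. Exons 21 to 29 had 20.3, 72.9 and 51.9. Pooled, exons 1 to 10 differed little between litters, while the pooled level of exons 21 to 29 was lowest in litter 1. Single exons of these groups did not all follow the pooled level. Exon 5 had 77.6, 15.3 and 21.2 RPKM, and in exons 21 and 29 litter 1 was highest. Across the 30 exons, litters 1 and 2 had a Pearson correlation of log2 level of 0.57 and a Spearman correlation of 0.52. Litter 3 gave 0.70 and 0.64 against litter 1, and 0.82 and 0.83 against litter 2. Exons of a gene share their RNA molecules and are not replicates, and no p is given.

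The last exon was covered along its length with a sharp peak inside it. Exon 30 has 4086 bases, of which 130 are coding, and the rest is the stop codon and the 3′ untranslated region, the part of the mRNA through which stability and translation are commonly controlled. It stood at 30.4, 14.1 and 24.6 RPKM, or 23.1 ± 8.27 (SD, n = 3). Exons 1 to 29 together were 1.76, 3.86 and 2.25 fold higher than it. The peak was a block of 403 bases at chr11:86082842-86083244, from 1375 to 1778 bases after the start of the exon. It had 168, 46.0 and 163 RPKM and held 55.4%, 32.6% and 66.3% of the aligned bases of the exon. Litter 2 was thus lowest in the peak, in level and in share. The exon had a lower block on either side of the peak. On the 5′ side, chr11:86084064-86084550 had 16.4, 19.9 and 20.1 RPKM, and on the 3′ side chr11:86082123-86082419 had 30.4, 16.7 and 10.02.

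**Figure D3:**
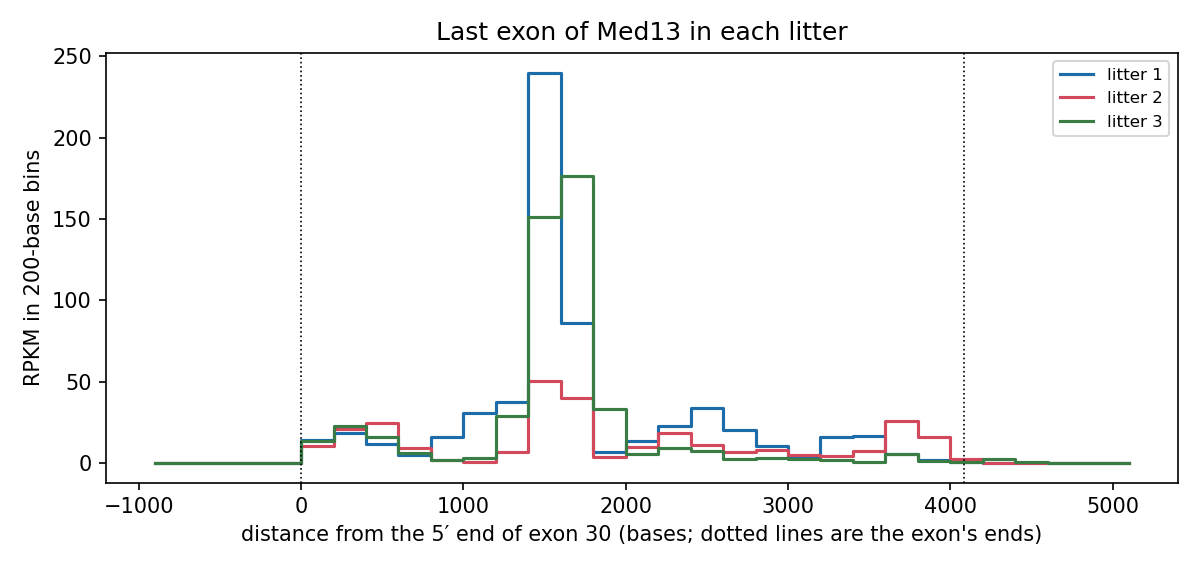
Coverage of exon 30 in 200-base bins (RPKM) against distance from its 5′ end in bases, 1 line a litter, with dotted lines at the ends of the exon. The bins from 1400 to 1800 bases are the highest in each litter, and in litters 1 and 2 coverage is at 0 from 200 bases outside the exon.

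Coverage at the ends of the gene differed between litters. The last 500 bases of exon 30 held 77, 308 and 67 alignment starts, and the 500 bases past it held 0, 0 and 24. From 500 to 2000 bases past the end there was none in any litter. Some alignments past the annotated end were thus seen in litter 3 alone. Upstream of exon 1, the nearest 500 bases held 2, 1 and 2 alignment starts, and the next 1500 held 1, 24 and 1. Exon 1 itself held 19, 2 and 6, so in litter 2 more alignments started upstream than in exon 1.

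Exons 1 and 29, of highest GC content, had the lowest mean levels, and the relation rested on few exons. Exon 1 was 62.2% G or C with 12 CG, and exon 29 was 53.5%. The exons next in GC content went both ways. Exon 6, at 50.8%, had a mean of 12.4 RPKM, and exon 24, at 49.7%, had a mean of 106 RPKM that rests on litter 2. Exon 3 was 39.1% and exon 10, the exon of lowest GC content, was 33.2%. Exon 10 had 38.2, 86.9 and 118 RPKM. Exon 30, at 34.2%, was nevertheless below the median exon. Across the 30 exons, the Pearson correlation of GC content with mean log2 level was -0.56 and the Spearman correlation -0.33. Without exons 1 and 29 these were -0.26 and -0.18 over 28 exons. Length gave -0.06 and 0.06, and distance from the 5′ end gave -0.02 and -0.04. The exons share libraries and amplification, and the correlations are descriptions only.

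**Figure D4:**
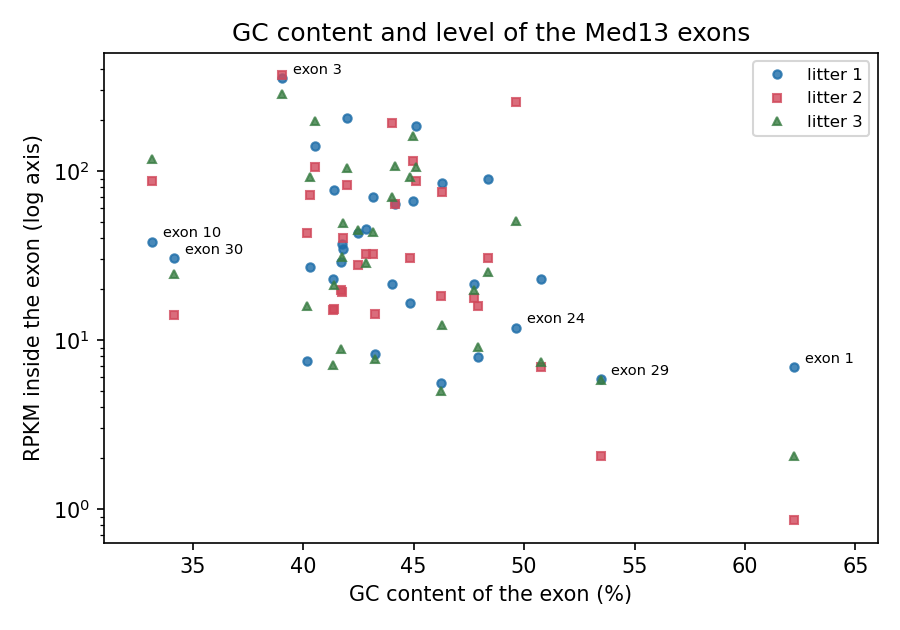
RPKM inside each exon (log axis) against its GC content in percent, with a symbol for each litter. Exons 1 and 29 have the highest GC content and lie near the bottom in all litters, and the other exons form no clear line.

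Between exons the coverage was low and patchy. Alignments wholly inside introns made up 16.9%, 18.1% and 14.6% of the alignments of the gene, with 95% Wilson intervals of 16.3% to 17.5%, 17.5% to 18.8% and 14.1% to 15.2%. The intervals allow for counting error alone, since reads copied by amplification and carrying no molecular identifier are not separate molecules. The introns stood at 0.9801, 0.908 and 0.793 RPKM, or 0.894 ± 0.0942 (SD, n = 3). Exons exceeded introns by 43.5, 38.9 and 51.3 fold. The introns in turn were 69.4, 24.96 and 89.2 fold above the upstream flank, and 0.799, 1.08 and 0.955 times the downstream flank. Intron density was therefore above the sequence before the gene in every litter, and above the sequence after it in litter 2 alone.

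The intron alignments were bunched in separate islands, and few intron bases were covered in every litter. Of intron bases, 20.6%, 20.7% and 9.88% were covered in litters 1 to 3, and 1.87% were covered in all 3, against 94.7% of exon bases. In litter 1 there were 68 islands, in litter 2 there were 73 and in litter 3 there were 40. The 5 islands with the most alignments held 60.3%, 60.3% and 86.2% of the intron alignments. In litter 3, 62.3% lay in intron 3 alone, in islands at chr11:86153136-86154017 and chr11:86148834-86149377 with 846 and 660 alignments. Intron 3, of 13831 bases, had 0.630, 0.332 and 2.80 RPKM.

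Single introns differed between litters far more than their sum. Intron 15 had 3.62, 8.59 and 0 RPKM, with 170, 385 and 0 alignments. Intron 27 had 132 alignments in litter 2 and 0 in litters 1 and 3. Intron 17 had 13, 2 and 165. In each of these introns 1 or 2 litters held nearly all alignments. Of 29 introns, 8 had more than 3 alignments in every litter, 4 in 2 litters and 7 in 1 litter, and 10 had at most 3 in every litter. At 0 in all litters were 7 introns, numbers 6, 7, 13, 14, 21, 22 and 25. They are short, and intron 21, the longest of them at 1170 bases, would have had 0.0803, 0.0842 and 0.0674 RPKM with the 3 alignments that a count of 0 allows.

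**Figure D5:**
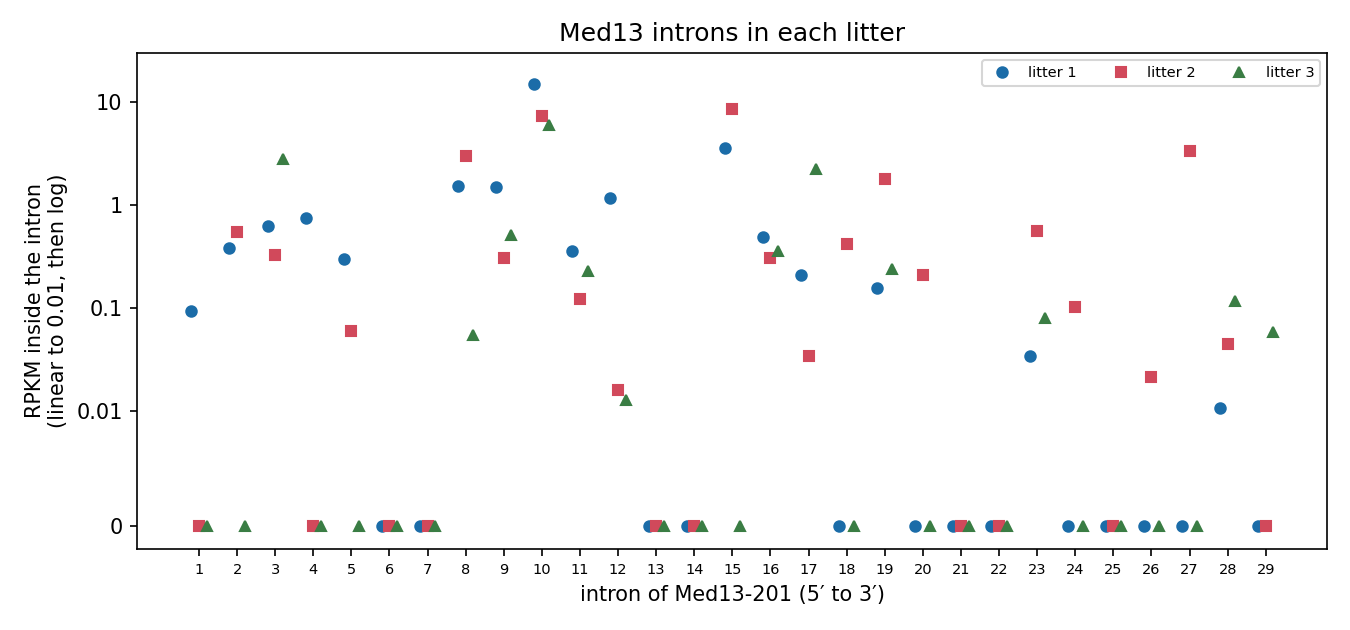
RPKM inside each of the 29 introns of Med13-201, in order from 5′ to 3′, with a symbol for each litter, on an axis that is linear to 0.01 and logarithmic above. Intron 10 is the only intron at 1 RPKM or more in all litters, and 7 introns are at 0 in all.

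Intron 10 was the exception in level, well covered in every litter. It is 1636 bases long and had 14.9, 7.39 and 5.98 RPKM inside it, with 791, 375 and 379 alignments, and no other of the 29 introns reached 1 RPKM in every litter. It makes up 2.04% of intron bases and held 48.1% of the 1494 intron bases covered in all litters. An unbroken stretch of 710 bases, chr11:86120910-86121619, was covered in every litter, 580 bases from exon 10 and 346 bases from exon 11. The block read from coverage lay in it at chr11:86120965-86121245, with 39.0, 18.6 and 29.1 RPKM. Its mean of 28.9 RPKM was exceeded by 15 of the other 18 blocks, and the intron as a whole was below the median exon, at 40.0 RPKM. Its 384, 176 and 319 alignments started at 194, 126 and 157 positions, with at most 10, 4 and 8 at any position. Outside intron 10 the introns stood at 0.696, 0.775 and 0.687 RPKM. Med13-201 has no exon there. No mm9 genome sequence was used here, so repeats in this stretch were not examined.

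Few alignments ran from an exon into an intron by 10 bases or more. Across an exon edge by any length there were 630, 736 and 726, or 4.09%, 5.81% and 4.25% of the alignments of the gene. Most of these had fewer than 10 bases on 1 side of the edge and were set aside. Counting those with at least 10 bases on either side of an exon edge, there were 37 in litter 1, 57 in litter 2 and 9 in litter 3, at 25, 38 and 4 start positions. This corresponds to 0.354, 0.572 and 0.0723 RPKM, which is 0.361, 0.630 and 0.0912 times the density of introns. The exons were 120, 61.7 and 563 fold above this level. Litter 3 had the fewest such alignments and the smallest share of intron bases covered. The upstream flank, at 0.0141, 0.0364 and 0.00889 RPKM, was lower than these alignments in every litter. Whether unspliced RNA or DNA gave the intron and edge alignments was not tested.

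The exons of the 5′ side had the higher mean coverage in every litter, with no steady fall along the gene. With the region split at its midpoint, mean coverage of the blocks on the 3′ side was lower than on the 5′ side by 0.64 ± 0.19 on the log2 scale, with -0.57, -0.85 and -0.49 in litters 1 to 3. With all 30 exons in place of the blocks the difference was -1.17, -1.01 and -1.15, so each litter had the same sign. On the 5′ side, which holds exons 1 to 9, exons 2 and 3 together had 247, 192 and 172 RPKM. Exon 9 there had 64.0, 63.7 and 106 RPKM. The other exons of that side had means from 3.29 RPKM in exon 1 to 38.6 in exon 4, all below the median exon at 40.0. The higher mean of the 5′ side thus came from exons 2, 3 and 9 and was not shared by its other exons. On the 3′ side, exon 30 makes up 4086 of the 10546 exon bases. The difference without exons 2, 3 and 9, or without exon 30, was not computed. Exon level did not follow distance from the 5′ end, with the correlations near 0 given above, and in litter 2 exons 21 to 29 were as high as exons 1 to 10. Between blocks the value was 1.06, 1.66 and 0.33 in favour of the 3′ side, but that measure counts the exons without a block. Inside the introns proper it was 0.32, 0.24 and -0.93. Without intron 10 it was -0.88, -0.25 and -1.82, so the sign in litters 1 and 2 turned with that intron.

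Other genes lie near Med13 and inside it, by the gene order of RefSeq (GRCm38.p6) and GENCODE M21. Downstream follow a tRNA gene and Ints2, which encodes a subunit of Integrator, the complex that processes small nuclear RNA, so the downstream flank is not empty sequence. Upstream are the long noncoding RNA genes Gm38937 and Gm33528. Inside Med13 RefSeq lists the snoRNA gene LOC115487929, of 223 bases. By its distance of 40.1 kb from the 5′ end it falls in intron 9, and the stretch laid there had 9.93, 1.28 and 0.111 RPKM. In litter 1 it overlapped the island of intron 9 with the most alignments, chr11:86130469-86130926, which held 233. Med13 intron RNA and the snoRNA cannot be told apart there. The antisense gene Brip1os reaches 37.4 kb into the 3′ part of Med13. Its transcript Brip1os-202 has 5 exons there, of which 4 overlap exons 12, 17, 20 and 21 of Med13. The coverage has no strand, so at those overlaps the RNAs cannot be told apart. In the Med13 introns of that part, unspliced Brip1os RNA likewise cannot be told from Med13 intron RNA. The 1100 bases of the last exon of Brip1os-202 that lie outside Med13 exons had 1.60, 0.0335 and 0.0228 RPKM, and the 97 bases of its exon in an intron of Med13 had 0 in all litters. The longest part of these antisense exons free of Med13 exons was thus covered mainly in litter 1. The other 3 antisense exons reach at most 43 bases beyond Med13 exons, less than an alignment.

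The alignment settings for reads that match several places are not stated, so copies of Med13 were looked for. Start counts over 80 neighbouring positions were compared with all other nuclear places for 21 exons and the block of intron 10. Exon 24, with 72 possible start positions, was not among them. Of these 22 stretches, 11 had at least 50 alignments in every litter, and 0 of the 11 had another place with equal counts in all 3 litters. Copies would give equal counts only if every place of a read was reported, and that setting is not known. The 0 of 11 therefore does not tell whether copies exist. Places whose counts were within 2 percent numbered 0 to 21 for each of the 11. Exon 19 and the block of intron 10 each had 21, and whether these places are copies was not tested. Among the other 11 stretches, with fewer alignments, 6 had places of equal counts, from 2 places for exon 23 to 44 for exon 30, whose stretch held 22, 15 and 14 alignments. For these 11, equal counts at such depth do not tell whether the places are copies. The stretch of exon 30 held few of the 4158, 1840 and 4004 alignments inside that exon, so its peak was not searched for copies. No start position in the region reached 50 alignments in every litter.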

How the data were processed

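RNA of 3 litters of 2-cell embryos was amplified with SPIA, sheared with a Covaris instrument and made into Illumina libraries, per the labels' protocols. The submitters' processing notes name Bowtie and mm9. For Bowtie, a version or settings were not given in the sources used here. Values deposited by the authors are coverage (signal), the depth of alignments at every base, not scaled to the library, as tested on the values.

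Ungapped alignments of 72 bases were recovered from coverage, with 0 negative starts on nuclear sequence. No read crosses a splice junction, so an exon is covered only where 72 bases fit inside it, and levels use such positions. RPKM is alignments per kb per 1000000 nuclear alignments. Blocks were bases at 2 or more times the region's mean in all litters, joined over gaps of up to 72 bases, and at least 72 long. Exon lengths and distances came from GENCODE M21. That use, like the intron, edge, tile, snoRNA and copy measures and the spread of runs and tiles under other scalings, was chosen after seeing the data, and no coordinate was converted. The gene and the measures were chosen with earlier results of these data known. By the rule for named genes Med13 alone is described, with neighbours by gene order. Other Mediator genes were not analysed here, because an mm9 annotation was not used. Shift and density recovery were tested on simulated data. Log2 values of exon and intron levels used a pseudocount of 0.1. Alternatives were block threshold and joining, flanks, scaling, distinct starts, pseudocount and leaving out each litter. By the labels, each litter was collected on its own. Software was numpy 2.4.6, scipy 1.17.1 and pandas 2.3.3 under Python 3.11.15, with plots by matplotlib 3.10.9.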

Additional observations from a re-analysis of the deposited data

How the results depend on the processing

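Of 70 alternative values of 8 results, 46 stayed within 1 SD, or within 1.5 times where the result had no SD. A further 22 moved more than that and 2 changed sign, both the lean in introns. No paired analysis was possible because there is 1 group. The level was 5.96 with distinct starts, 5.95 RPKM without the 100 windows of most alignments in the total and 39.5 over exons laid by distance. The gene over flank ratio was 5.69 with distinct starts, 7.28 with flanks of 25 kb, 4.89 with the downstream flank only and 329 with the upstream flank only. Medians of 1 kb bins gave no ratio because the flank median was 0. Blocks numbered 31 with distinct starts and 31 at a threshold of 1 times the mean. Their share was 77.1% at that threshold, 56.5% at 4 times and 83.1% with exons laid by distance. The block over intron fold was 19.9 with distinct starts. The lean in blocks was -0.37 with distinct starts, -1.11 with exons by distance, -0.86 without the longest block, and -0.97 to -0.54 when each litter was left out. The lean in introns was 0.32 with distinct starts, -0.12 with introns by distance and -0.98 without intron 10. The SD of log2 level between litters, 0.105, was 0.181 with distinct starts, 0.18 by median of ratios, 0.172 without the 100 windows, and 0.0695 to 0.149 when each litter was left out, lowest without litter 2. The cause of these moves was not tested. An mm9 annotation as the source of exons was not run. Depth limits exons 1 and 29, with 2 to 17 alignments a litter, and introns of few positions. It also limits exon 11, with 10, 5 and 10 alignments over 8 possible start positions.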
